A study of Mus musculus with 32 samples.

Results

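Acute phase proteins are plasma proteins whose synthesis changes during inflammation, and 10 mouse genes that encode proteins raised in this response were followed here through corticosterone (cort) exposure and a high-protein diet (HPD). They were haptoglobin (Hp), hemopexin (Hpx), serum amyloid A 1, 2 and 3 (Saa1, Saa2 and Saa3), orosomucoid 1 and 2 (Orm1 and Orm2), lipocalin 2 (Lcn2), serum amyloid P component (Apcs) and inter-alpha-trypsin inhibitor heavy chain 4 (Itih4). The 10 genes were taken by name from the 47643 gene IDs counted. RNA of epididymal white adipose tissue (eWAT) and liver was measured in 32 libraries of QuantSeq, a method that reads the 3′ end of polyadenylated transcripts. The mice were male C57BL/6 mice (C57BL/6J in the study's methods), 10 weeks old at the start. They drank water with cort or with the ethanol vehicle alone (veh) for 7 days while eating a normal-protein diet (NPD, 20% of energy from whey protein) or the HPD (60%), whose added protein replaced carbohydrate at equal energy. Each tissue therefore had 4 groups of 4 libraries, named by drink and diet: Veh NPD and Cort NPD, and their HPD counterparts. The study left 1 liver library out as an outlier, Veh HPD replicate 4, and it was also left out of the liver values here, so that Veh HPD liver had 3 libraries.

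The acute phase response is driven mainly by interleukin-6 and interleukin-1, which act on hepatocytes through STAT3, C/EBP and NF-kappaB factors. Glucocorticoids are known to add to the effect of these cytokines on several acute phase genes while they lower the cytokines themselves. Liver is the main source of the plasma proteins, and fat is known to make some of them, among them Hp, Orm1, Lcn2 and Saa3. Hp and Hpx bind free hemoglobin and free heme, the Saa proteins travel on high-density lipoprotein, Orm1 and Orm2 bind lipophilic ligands, and Lcn2 binds the iron carriers of bacteria.

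Promoters are shown for 5 of the genes, the Saa genes because 3 of them varied together between single livers, and Lcn2 and Hpx because they had opposite responses to cort on the NPD. Each sequence runs from 250 bases before the transcription start to 50 bases after it, in the RefSeq annotation of GRCm38.p6, in the direction of transcription, and capitals mark a match to the C/EBP motif TTGCNNAA on either strand.
Saa1: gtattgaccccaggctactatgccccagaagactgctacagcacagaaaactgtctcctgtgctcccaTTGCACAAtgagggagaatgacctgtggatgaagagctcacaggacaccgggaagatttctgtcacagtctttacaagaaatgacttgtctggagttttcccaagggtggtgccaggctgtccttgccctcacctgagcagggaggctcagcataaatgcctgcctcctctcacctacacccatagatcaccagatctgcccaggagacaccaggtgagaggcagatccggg
Saa2: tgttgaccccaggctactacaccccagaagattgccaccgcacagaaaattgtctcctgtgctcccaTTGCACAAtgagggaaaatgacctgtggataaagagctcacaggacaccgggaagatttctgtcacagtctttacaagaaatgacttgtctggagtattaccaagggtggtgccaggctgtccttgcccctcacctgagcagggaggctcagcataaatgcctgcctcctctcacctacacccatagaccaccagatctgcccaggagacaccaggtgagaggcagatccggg
Saa3: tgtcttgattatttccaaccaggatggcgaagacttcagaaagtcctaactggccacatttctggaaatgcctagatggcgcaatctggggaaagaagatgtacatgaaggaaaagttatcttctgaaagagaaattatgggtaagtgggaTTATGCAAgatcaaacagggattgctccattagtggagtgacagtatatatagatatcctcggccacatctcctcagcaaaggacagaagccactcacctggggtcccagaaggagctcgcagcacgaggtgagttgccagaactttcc
Lcn2: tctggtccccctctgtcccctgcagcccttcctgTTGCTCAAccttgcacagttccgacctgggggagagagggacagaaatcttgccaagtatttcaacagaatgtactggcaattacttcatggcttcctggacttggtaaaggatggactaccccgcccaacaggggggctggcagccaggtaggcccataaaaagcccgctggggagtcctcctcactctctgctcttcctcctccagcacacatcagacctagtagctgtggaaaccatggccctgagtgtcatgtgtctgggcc
Hpx: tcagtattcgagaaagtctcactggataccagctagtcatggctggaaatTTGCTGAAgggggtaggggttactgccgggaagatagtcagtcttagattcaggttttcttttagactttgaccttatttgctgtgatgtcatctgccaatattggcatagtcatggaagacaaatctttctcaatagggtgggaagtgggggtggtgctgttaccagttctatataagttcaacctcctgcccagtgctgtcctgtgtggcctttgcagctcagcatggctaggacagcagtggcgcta
These windows lie at chr7:46742931-46743230 (minus strand) for Saa1, chr7:46751583-46751882 (plus) for Saa2, chr7:46715627-46715926 (minus) for Saa3, chr2:32387690-32387989 (minus) for Lcn2 and chr7:105600067-105600366 (minus) for Hpx. The Saa1 and Saa2 windows matched at 287 of 301 aligned positions (95.3%), whereas Saa1 and Saa3 matched at 170 of 339 (50.1%).

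Promoters of 8 of the 10 genes were in the RefSeq table, and those of Hp and Orm1 were not used. The C/EBP motif was in the windows of Saa1, Saa2, Saa3, Orm2, Lcn2 and Hpx, and in 10.8% of all 32851 mouse promoter windows of this length. The STAT motif TTCNNNGAA was in those of Apcs and Itih4 and in 8.30% of all windows. The core of the glucocorticoid receptor (GR) motif, ACANNNTGT, was in the Lcn2 window alone among the 8 and in 6.85% of all windows. No match to the kappaB motif (4.51% of all windows) or to the HNF1 motif (0.399%) was in these windows. Both strands were searched, and the C/EBP and GR core matches of Lcn2 did not overlap.

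Total counts were 9794683 to 18057936 in eWAT and 8933307 to 17447524 in liver, and no 2 libraries held identical counts. Tissue labels held in each library: 10 adipocyte markers summed to 46480 to 87530 CPM (read counts scaled to a common library total with TMM factors) in eWAT and to 1561 to 6001 in liver, and 10 hepatocyte markers to 69670 to 250200 CPM in liver. Of the libraries, eWAT Cort HPD replicate 4 stood apart by its epididymal transcripts, whose values are given with Lcn2. All 10 genes passed the filter on low counts in liver. In eWAT 6 passed (Hp, Orm1, Orm2, Lcn2, Saa3 and Itih4), and Saa1, Saa2, Apcs and Hpx had at most 13, 13, 2 and 17 reads per library and were not tested there.

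With cort, 3 of the 10 genes passed the test in liver on the NPD (Hp and Lcn2 higher, Hpx lower), beside 12.6% of the 12391 genes tested, and 4 on the HPD (Hp, Orm1, Lcn2 and Apcs, all higher), beside 9.89%. A call here is an adjusted p under 0.05 by the quasi-likelihood test of edgeR, adjusted over every gene tested. The median log2 fold change of the 10 genes was 0.27 on the NPD and 0.66 on the HPD, beside -0.005 and -0.004 over all genes. In cort mice 3 of the genes were higher on the HPD than on the NPD in liver (Hp, Apcs and Hpx), beside 5.88% of all genes. In veh mice the diet called none of the 10 in liver with edgeR, DESeq2 or limma voom, 1 had an unadjusted p under 0.05, and 0.169% of all genes were called. The interaction of diet and cort called none in liver with edgeR, where 4 had an unadjusted p under 0.05 and 0.113% of all genes were called, and DESeq2 called 1 (Hpx).

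In eWAT cort raised 2 of the 6 genes tested on the NPD (Hp and Orm1), beside 7.98% of 15187 genes, and 3 on the HPD (Hp, Orm1 and Lcn2), beside 6.09%. The HPD lowered 1 in veh mice (Orm1), where 0.0593% of all genes were called. In cort mice it called none with edgeR, DESeq2 or limma voom, with 2 at an unadjusted p under 0.05 and 0.487% of all genes called. The interaction in eWAT called none with edgeR, 2 had an unadjusted p under 0.05, 0.0132% of all genes were called, and DESeq2 called 1 (Orm1). When the cort responses of the tissues were compared in a fit of both, 1 gene was called on the NPD (Hp), beside 3.85% of 16482 genes. On the HPD none was called with edgeR or DESeq2, 1 had an unadjusted p under 0.05 (Orm1), and 3.12% of all genes were called. This comparison can speak only for the 6 genes tested in eWAT. Saa1, Saa2, Apcs and Hpx entered that fit with hardly any eWAT reads, so it cannot decide whether their responses differed. The fit also took liver and eWAT libraries as independent, although the labels do not say whether they share mice. It gave each gene a single spread for both tissues. Fitted apart, the tissues had a biological coefficient of variation of 0.372 in eWAT and 0.228 in liver.

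**Figure D1:**
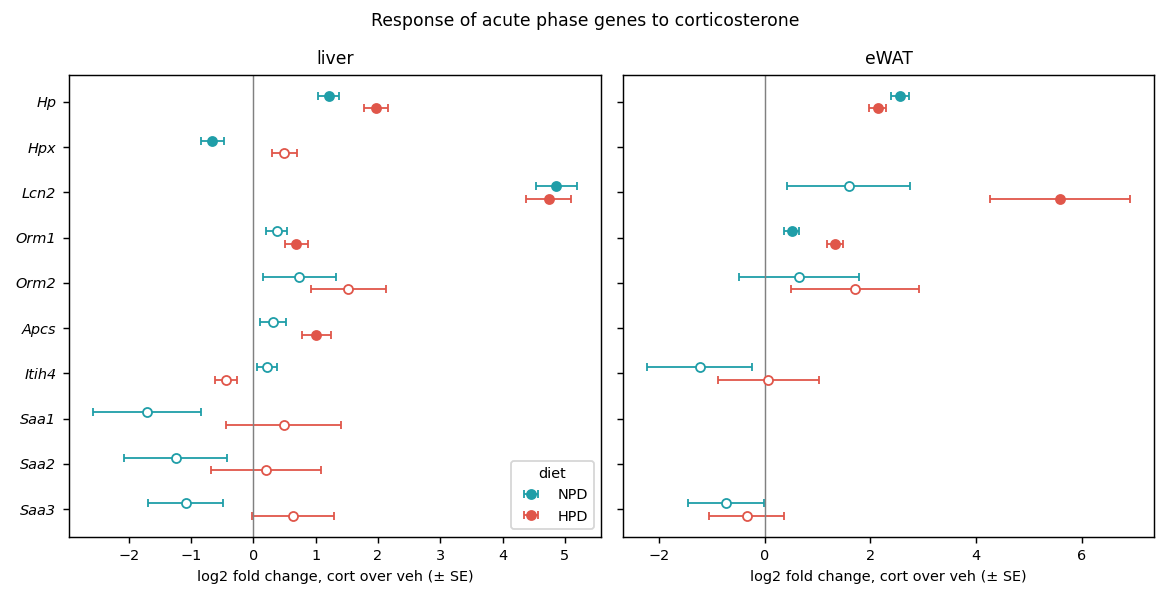
Log2 fold change of cort over veh with its standard error (horizontal axis) for each acute phase gene (rows) in liver (left) and eWAT (right), on the NPD (teal) and the HPD (red). Filled points passed the test, hollow points did not, and genes without a point in eWAT were not tested. Hp lies to the right of 0 in all 4 comparisons, and Hpx lies at -0.66 on the NPD and 0.50 on the HPD in liver.

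Hp (ENSMUSG00000031722, chromosome 8 from 109575128 to 109579172, minus strand, GRCm38), which encodes the hemoglobin scavenger haptoglobin, rose with cort in both tissues and on both diets. In liver Hp was at 1368, 1666, 1265 and 1285 CPM in Veh NPD and at 1197, 1306 and 1289 CPM in Veh HPD. Cort NPD livers held 3469, 3334, 3133 and 2962 CPM, and Cort HPD livers 4598, 4516, 6550 and 4107 CPM. Every cort liver was above every veh liver, every Cort HPD liver was above every Cort NPD liver, and the veh groups overlapped. The log2 fold change with cort was 1.21 (SE 0.16, edgeR adjusted p = 2.6e-05) on the NPD and 1.97 (SE 0.19, edgeR adjusted p = 3.34e-07) on the HPD. Between the diets, Hp in cort livers was higher on the HPD by 0.62 on the log2 scale (SE 0.16, edgeR adjusted p = 0.0269), whereas the interaction of 0.76 (SE 0.24) missed the threshold (edgeR adjusted p = 0.207). The diet call was lost with all 16 livers (0.63, edgeR adjusted p = 0.0633), in a fit of the Cort groups alone (0.62, edgeR adjusted p = 0.0609) and without Cort HPD replicate 3 (0.45, edgeR adjusted p = 0.111), Cort NPD replicate 3 (0.61, edgeR adjusted p = 0.0689) or Cort NPD replicate 4 (0.59, edgeR adjusted p = 0.0656). Without TMM factors the diet difference was 0.45 (edgeR adjusted p = 0.0902), and the median of all genes shifted by -0.17 in that fit.

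Other transcripts moved between the cort diets in liver as well. The sum of 7 red blood cell markers, each of them detected, was 1358 to 3544 CPM in Cort NPD livers and 5273 to 7627 CPM in Cort HPD livers, and that of the 10 hepatocyte markers, Alb and Ttr among them, was 102500 to 129100 and 145900 to 250200 CPM. Their part in the diet difference of Hp was not tested. In whole tissue, more cells of a type and more RNA per cell cannot be told apart.

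**Figure D2:**
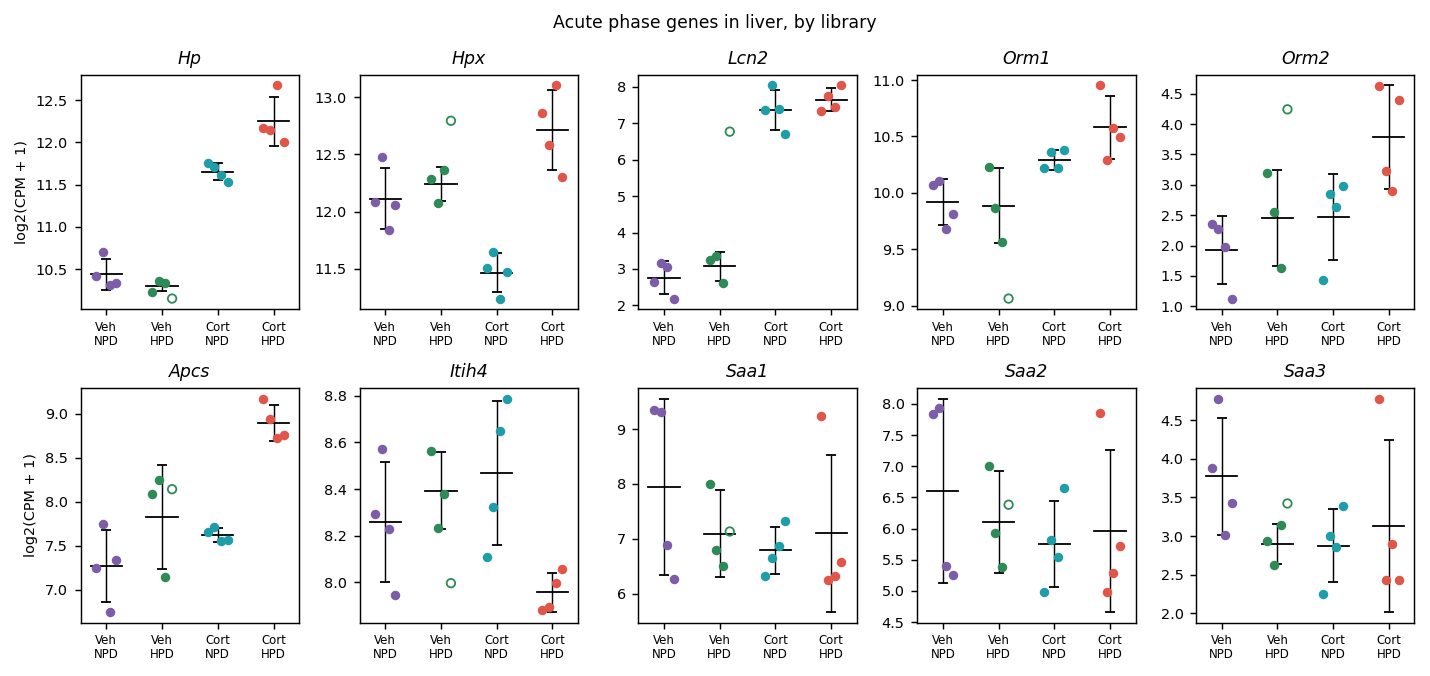
Level of the 10 acute phase genes in each liver library, as log2(CPM + 1), by group: points are libraries, long bars the group mean and error bars the SD. The hollow point is the left-out Veh HPD replicate 4, which enters no mean, and vertical axes differ between genes. Hp and Lcn2 of all 8 cort livers lie above those of the 7 veh livers in the fit, whereas the Saa genes spread widely within groups.

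In eWAT Hp was at 1177, 861, 1008 and 1290 CPM in Veh NPD and at 1581, 1101, 1770 and 2106 CPM in Veh HPD. It reached 5815, 7629, 6829 and 5407 CPM in Cort NPD and 7342, 6572, 7748 and 7169 CPM in Cort HPD. The lowest cort library was above the highest veh library by more than the spread of either group, and the diets overlapped under each treatment. The log2 fold change with cort was 2.57 (SE 0.17, edgeR adjusted p = 7.58e-11) on the NPD and 2.14 (SE 0.17, edgeR adjusted p = 1.94e-09) on the HPD, which is 5.92-fold and 4.40-fold. Both calls held in every one of the 16 fits that left out a library. On the NPD the response in liver was smaller than in eWAT by 1.32 on the log2 scale (SE 0.25, edgeR adjusted p = 0.00133), and on the HPD the difference was -0.21 (SE 0.26, edgeR adjusted p = 0.802). Red blood cell markers summed to 12690 to 25860 CPM in Cort HPD eWAT and to 3619 to 9274 CPM in the other groups, and their part in the HPD values of eWAT was not tested. Sums of 10 markers of fat progenitor cells, each detected in eWAT, were 4048 to 4795 CPM in Veh NPD and 4014 to 4523 in Veh HPD, and 2488 to 2649 in Cort NPD and 2732 to 3117 in Cort HPD, without overlap, and their part in the cort values of eWAT was not tested. Over the 16 eWAT libraries, the genes whose log2 CPM followed Hp most closely were Tmem176a (Pearson r = 0.983), Ndrg2 (0.977) and Tmem176b (0.974), and over the 15 livers Orm3 (0.972), Mep1a (0.961) and Cyp39a1 (0.949). These r values describe libraries that share their groups.

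**Figure D3:**
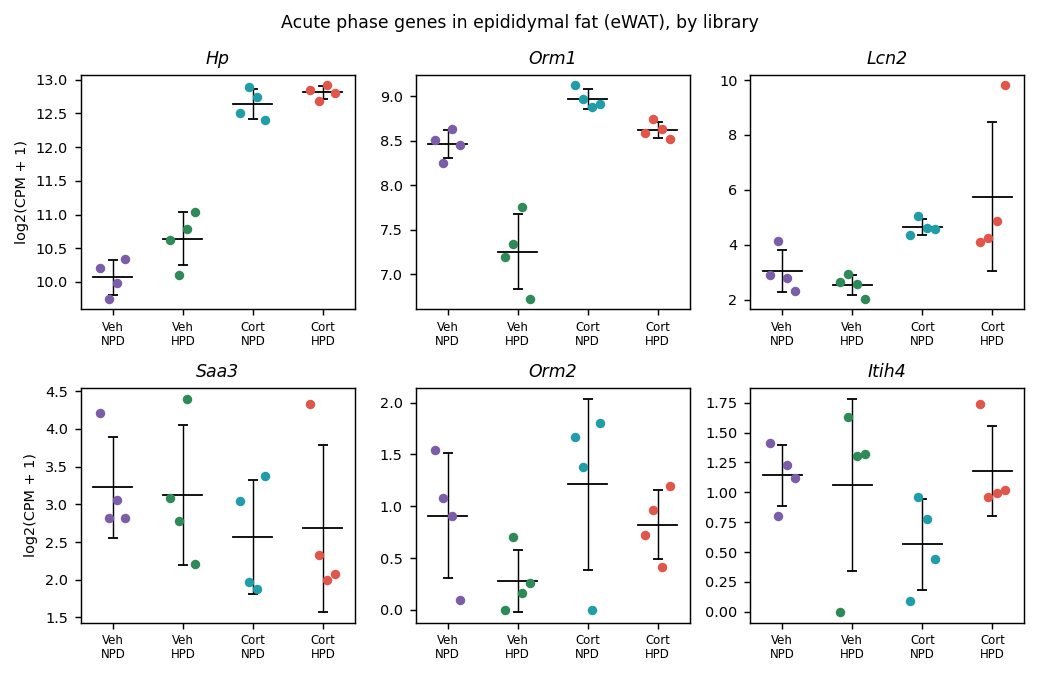
Level of the 6 acute phase genes tested in eWAT, as log2(CPM + 1), by group: points are the 4 libraries of a group, long bars the mean and error bars the SD, and vertical axes differ between genes. Hp of the 8 cort libraries lies above that of the 8 veh libraries, Orm1 is lowest in Veh HPD, and 1 Cort HPD library has 898 CPM of Lcn2.

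Hpx (ENSMUSG00000030895, chromosome 7 from 105591613 to 105600137, minus strand), which encodes the heme scavenger hemopexin, fell with cort in liver on the NPD and was higher on the HPD than on the NPD in cort mice. It was at 4328, 5700, 3655 and 4253 CPM in Veh NPD livers and at 4978, 4314 and 5280 CPM in Veh HPD livers. Cort NPD livers held 2907, 3205, 2418 and 2842 CPM, and Cort HPD livers 7442, 6139, 8803 and 5050 CPM. The Cort NPD livers were thus the lowest of all, without overlap with any other group, whereas Cort HPD overlapped Veh HPD. The fold change with cort was -0.66 on the log2 scale (SE 0.18, edgeR adjusted p = 0.02) on the NPD and 0.50 (SE 0.20, edgeR adjusted p = 0.121) on the HPD. In cort mice Hpx was 2.41-fold higher on the HPD (log2 1.27, SE 0.19, edgeR adjusted p = 0.000309), a call that held in every alternative run. The interaction was 1.16 (SE 0.27) and did not pass with edgeR (adjusted p = 0.1), but passed with DESeq2 (1.17, adjusted p = 0.00565) and without the filter on low counts (1.15, edgeR adjusted p = 0.0195). The fall on the NPD was not called with all 16 livers (-0.65, edgeR adjusted p = 0.0655), without Veh NPD replicate 2 (-0.53, edgeR adjusted p = 0.0825) or without Cort NPD replicate 3 (-0.60, edgeR adjusted p = 0.0627).

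Hp and Hpx, the scavengers of hemoglobin and heme, thus parted on the NPD, where cort raised Hp and lowered Hpx in the same livers. Within groups, however, a liver with more Hp had more Hpx: their deviations from the group means had a Pearson r of 0.797 over 15 livers, given as a description of values from shared libraries. The red blood cell markers given with Hp were also higher in Cort HPD than in Cort NPD livers, and their part in the diet difference of Hpx was not tested. The genes most like Hpx over the 15 livers were Il18bp (r = 0.953), Irf7 (0.904) and H2-T22 (0.900).

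Lcn2 (ENSMUSG00000026822, chromosome 2 from 32384633 to 32388252, minus strand), which encodes a siderophore-binding protein of liver, fat and neutrophils, had the largest fold rise of the 10 genes in liver. In Veh NPD livers it was at 5.22, 7.96, 7.36 and 3.55 CPM, and in Veh HPD livers at 8.43, 9.25 and 5.14 CPM. It was at 165, 263, 166 and 103 CPM in Cort NPD and at 161, 214, 173 and 262 CPM in Cort HPD. The lowest cort liver was more than 10 times the highest of these veh livers, and the diets overlapped under each treatment. The rise was 29.0-fold on the NPD (log2 4.86, SE 0.33, edgeR adjusted p = 3.74e-08) and 26.7-fold on the HPD (log2 4.74, SE 0.36, edgeR adjusted p = 3.16e-07). The left-out liver, Veh HPD replicate 4, held 108 CPM of Lcn2, the level of a cort liver, and with it in the fit the HPD value was 2.66 (edgeR adjusted p = 0.0607). That library also held 43350 CPM of hepatocyte markers (69670 or more in the other livers), 446 of mesothelial markers (110 to 202 in the other veh livers), 495 of macrophage markers (223 to 346) and 330 of Kupffer cell markers (156 to 231), and their part in its Lcn2 level was not tested. The CPM of that library were scaled with TMM factors of all livers, and those of the other livers with factors of the livers in the fit. The marker sums were not taken without TMM factors. Sums of 10 neutrophil markers, of which 1 was at 0 in every liver, overlapped between the groups, at 4.76 to 19.6 CPM in Veh NPD, 6.01 to 17.4 in Veh HPD, 5.54 to 29.9 in Cort NPD and 6.91 to 28.2 in Cort HPD. The genes most like Lcn2 over the 15 livers were Sult1e1 (r = 0.976), Cbr1 (0.973) and Gpx3 (0.972).

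In eWAT Lcn2 was at 6.55, 16.5, 5.85 and 3.996 CPM in Veh NPD and at 5.204, 6.63, 4.95 and 3.11 CPM in Veh HPD. It was at 19.6, 32.2, 23.7 and 22.5 CPM in Cort NPD and at 16.2, 17.9, 28.3 and 898 CPM in Cort HPD. No cort library overlapped the veh libraries of its diet, and Cort HPD replicate 4 was far above every other library. The log2 fold change was 1.59 (SE 1.17, edgeR adjusted p = 0.518) on the NPD and 5.59 (SE 1.33, edgeR adjusted p = 0.0271) on the HPD. Without Cort HPD replicate 4 it was 1.58 on the NPD (edgeR adjusted p = 0.00408) and 2.06 on the HPD (edgeR adjusted p = 0.00116), so that both passed. The NPD value also passed in a fit of the NPD groups alone (1.57, edgeR adjusted p = 0.0144). With that library in the fit, the HPD call was lost under limma voom (3.55, adjusted p = 0.311), in a fit of the HPD groups alone (5.56, edgeR adjusted p = 0.178), with replicate number as a block (4.27, edgeR adjusted p = 0.145) and without any 1 of the 4 Veh HPD libraries (5.42 to 5.75, edgeR adjusted p = 0.0575 to 0.0841).

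The same eWAT library carried transcripts of the epididymis, the organ this fat depot lies against. A list of 12 epididymis and testis markers summed to 10340 CPM in Cort HPD replicate 4 and to at most 11.6 CPM in the other 15 eWAT libraries, with 1 of the 12 genes at 0 in every eWAT library. There Lcn8 was at 2979, Lcn9 at 2352, Defb20 at 2273, Adam7 at 1389 and Rnase10 at 1240 CPM, all of them genes of the epididymis, while the sperm cell genes Prm1, Prm2 and Tnp1 had 2, 6 and 0 reads. Adam7 and Tpst2 (r = 0.917 for each) and Slc7a5 (0.914) were the genes whose log2 CPM was most like that of Lcn2 over the 16 eWAT libraries. Adam7 was at no more than 10.1 CPM in the other Cort HPD libraries, so that replicate 4 weighs heavily in its r. The part of the epididymal transcripts in the Lcn2 level of this library was not tested. Without Cort HPD replicate 4, the cort response of Lcn2 was larger in liver than in eWAT, by 3.27 on the log2 scale on the NPD (edgeR adjusted p = 0.000342) and by 2.69 on the HPD (edgeR adjusted p = 0.0072). With it, these differences were 3.32 (SE 1.24, edgeR adjusted p = 0.159) and -0.88 (SE 1.25, edgeR adjusted p = 0.834).

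**Figure D4:**
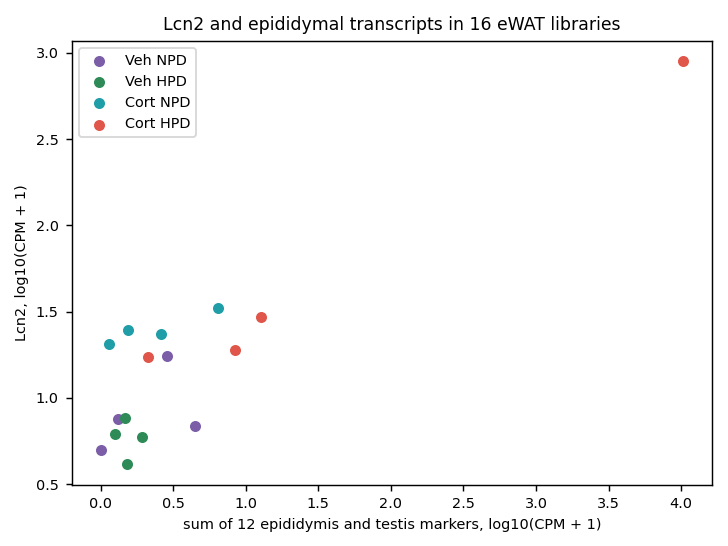
Lcn2 (vertical axis) against the sum of 12 epididymis and testis markers (horizontal axis) in the 16 eWAT libraries, both as log10(CPM + 1), with 1 point per library colored by group. A single Cort HPD library stands apart on both axes, at 10340 CPM of the markers and 898 CPM of Lcn2.

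Orm1 (ENSMUSG00000039196, chromosome 4 from 63344560 to 63348163, plus strand), which encodes the ligand-binding plasma protein orosomucoid 1, rose with cort in eWAT on both diets and fell with the HPD in veh mice. In eWAT it was at 364, 303, 397 and 350 CPM in Veh NPD and at 145, 161, 214 and 105 CPM in Veh HPD. Cort NPD libraries held 558, 501, 471 and 480 CPM, and Cort HPD libraries 384, 428, 396 and 366 CPM. The groups stood in the order Cort NPD, Cort HPD, Veh NPD and Veh HPD, of which Cort HPD and Veh NPD overlapped. The HPD lowered Orm1 in veh mice to 0.442 of its NPD level (log2 -1.18, SE 0.15, edgeR adjusted p = 0.000289), a call kept in all 16 fits that left out a library. Cort raised it by 0.51 on the log2 scale (SE 0.15, edgeR adjusted p = 0.0317) on the NPD and by 1.33 (SE 0.15, edgeR adjusted p = 1.32e-06) on the HPD. In cort mice the diet difference was -0.35 (SE 0.15, edgeR adjusted p = 0.407). The interaction of 0.83 (SE 0.21) missed the threshold with edgeR (adjusted p = 0.498) and passed with DESeq2 (0.83, adjusted p = 0.0496). The call on the NPD was lost without Veh NPD replicate 1, 2 or 4, without Cort NPD replicate 1, 2 or 4 (0.44 to 0.53, edgeR adjusted p = 0.0528 to 0.114) and without TMM factors (0.42, edgeR adjusted p = 0.0996). The genes most like Orm1 over the 16 eWAT libraries were Htra1 (r = 0.943), Tmem45b (0.934) and Hmgcs1 (0.924).

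In liver Orm1 was at 1072, 1097, 818 and 899 CPM in Veh NPD, 1197, 934 and 755 CPM in Veh HPD, 1189, 1316, 1190 and 1332 CPM in Cort NPD and 1983, 1252, 1527 and 1445 CPM in Cort HPD. Cort livers lay above the veh livers of their diet. The rise passed on the HPD (log2 0.69, SE 0.19, edgeR adjusted p = 0.0214) and not on the NPD (log2 0.37, SE 0.17, edgeR adjusted p = 0.164), and the interaction was 0.32 (SE 0.25, edgeR adjusted p = 0.634). The call on the HPD was not kept without the libraries Veh HPD replicate 2 (0.69, edgeR adjusted p = 0.0635) or replicate 3 (0.55, edgeR adjusted p = 0.118), in a fit of the HPD groups alone (0.68, edgeR adjusted p = 0.08) and without TMM factors (0.43, edgeR adjusted p = 0.113), where the median of all genes shifted by -0.24. Orm2 (ENSMUSG00000061540, chromosome 4 from 63362449 to 63365878, plus strand), a copy of Orm1, was low in liver, at 4.11, 3.82, 2.94 and 1.18 CPM in Veh NPD, 8.15, 4.84 and 2.10 in Veh HPD, 1.69, 6.21, 5.22 and 6.87 in Cort NPD and 23.7, 8.37, 6.43 and 20.1 in Cort HPD. No comparison of Orm2 passed the test, the closest being HPD against NPD in cort livers (log2 1.54, SE 0.55, edgeR adjusted p = 0.124). In eWAT it had 0 to 32 reads per library. The last 300 bases of the Orm1 and Orm2 transcripts shared 58.6% of their 50-base words, so that reads could be split between them in an uncertain way. With Orm1, Orm2 and Orm3 summed, the eWAT values were 0.55 (edgeR adjusted p = 0.0157) on the NPD and 1.32 (edgeR adjusted p = 1e-06) on the HPD, and the liver value on the HPD was 0.75 (edgeR adjusted p = 0.0132).

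The serum amyloid A genes, whose proteins are the strongest reactants of the acute phase in mice, passed no test in either tissue and spread widely within groups in liver. Saa1 (ENSMUSG00000074115, chromosome 7 from 46740497 to 46742980, minus strand) was at 650, 630, 117 and 75.9 CPM in Veh NPD livers, at 253, 110 and 89.3 in Veh HPD, at 78.6, 99.1, 116 and 159 in Cort NPD, and at 600, 75.4, 78.9 and 94.7 in Cort HPD. A pair of Veh NPD livers and 1 Cort HPD liver were thus several times above the rest of their groups. Saa2 (ENSMUSG00000057465, chromosome 7 from 46751790 to 46754313, plus strand) was at 227, 245, 41.1 and 37.3 CPM in Veh NPD, 127, 59.9 and 40.8 in Veh HPD, 30.7, 55.4, 45.7 and 99.0 in Cort NPD, and 231, 30.6, 38.1 and 51.8 in Cort HPD. Saa3 (ENSMUSG00000040026, chromosome 7 from 46711998 to 46715700, minus strand), which macrophages and fat cells also make, was at 13.7, 26.4, 7.10 and 9.72 CPM in Veh NPD, 6.64, 5.19 and 7.84 in Veh HPD, 3.77, 6.99, 6.28 and 9.48 in Cort NPD, and 26.2, 4.42, 6.43 and 4.38 in Cort HPD. The same livers were high for all 3 genes: Veh NPD replicates 1 and 2 and Cort HPD replicate 1.

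With cort on the NPD, the log2 fold changes in liver were -1.70 (SE 0.87, edgeR adjusted p = 0.241) for Saa1, -1.25 (SE 0.83, edgeR adjusted p = 0.382) for Saa2 and -1.09 (SE 0.61, edgeR adjusted p = 0.289) for Saa3. On the HPD they were 0.49 (SE 0.92), 0.21 (SE 0.88) and 0.64 (SE 0.66), with edgeR adjusted p = 0.794, 0.914 and 0.602. These errors leave room for large changes in either direction. Without Cort HPD replicate 1 the HPD values turned negative, to -0.87, -0.92 and -0.38 (edgeR adjusted p = 0.552, 0.537 and 0.658). Saa1 and Saa2 also share part of their 3′ ends (9.56% of 50-base words), and summed they gave -1.57 (edgeR adjusted p = 0.278) on the NPD and 0.40 (edgeR adjusted p = 0.83) on the HPD.

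Within groups the liver levels of these genes moved together. The deviations of log2 CPM from the group means had r = 0.977 for Saa1 and Saa2, 0.809 for Saa1 and Saa3, 0.830 for Saa1 and Orm1 and 0.716 for Saa1 and Orm2 over 15 livers, against 0.056 for Saa1 and Hp and 0.053 for Saa1 and Lcn2. Between these lay Apcs (0.491), Itih4 (0.484) and Hpx (0.338) with Saa1. These values are descriptions, since the genes share libraries, and Saa1 and Saa2 share sequence. The gene outside the 10 most like Saa1 was Pdcl (r = 0.897), followed by Aadac (0.847) and Slirp (0.836). In eWAT Saa1 was at no more than 0.864 CPM and Saa2 at no more than 0.795 CPM, and Saa3 was at 2.68 to 20.2 CPM, with log2 fold changes of -0.74 (SE 0.72, edgeR adjusted p = 0.649) on the NPD and -0.34 (SE 0.71, edgeR adjusted p = 0.865) on the HPD.

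**Figure D5:**
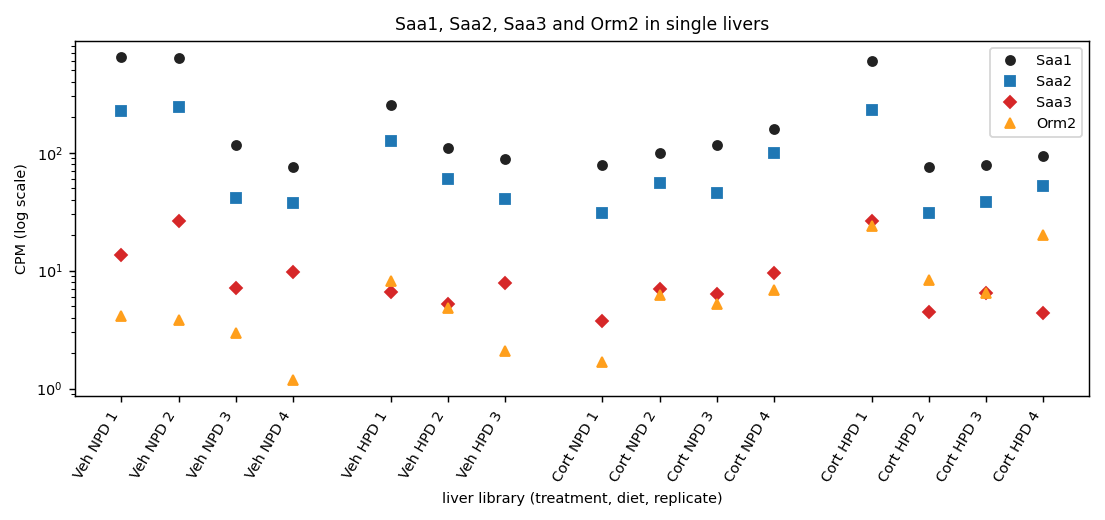
Saa1, Saa2, Saa3 and Orm2 in each of the 15 liver libraries in the fit, in CPM on a log scale (vertical axis), with libraries ordered by group and replicate (horizontal axis). Veh NPD replicates 1 and 2 and Cort HPD replicate 1 stand high for the 3 Saa genes, at 600 to 650 CPM of Saa1 against 75.4 to 253 CPM in the other 12 livers.

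Apcs (ENSMUSG00000026542, chromosome 1 from 172893961 to 172895041, minus strand), which encodes serum amyloid P component, a pentraxin and a major acute phase reactant of mice, rose in liver with cort on the HPD and was higher on the HPD than on the NPD in cort mice. It was at 151, 215, 107 and 161 CPM in Veh NPD, 272, 303 and 141 in Veh HPD, 202, 209, 187 and 189 in Cort NPD, and 576, 489, 421 and 434 in Cort HPD. All 4 Cort HPD livers were above every other liver, and the other 3 groups overlapped. With cort the log2 change was 1.01 (SE 0.23, edgeR adjusted p = 0.00704) on the HPD and 0.31 (SE 0.21, edgeR adjusted p = 0.37) on the NPD. In cort mice Apcs was 2.44-fold higher on the HPD (log2 1.29, SE 0.21, edgeR adjusted p = 0.000841), and the interaction was 0.70 (SE 0.31, edgeR adjusted p = 0.362). Both calls held in every alternative run. In veh mice the diet difference was 0.59 (SE 0.22, edgeR adjusted p = 0.371). The genes most like Apcs over the 15 livers were Ifi35 (r = 0.914), Nudt19 (0.913) and Ugdh (0.905).

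Itih4 (ENSMUSG00000021922, chromosome 14 from 30886476 to 30902353, plus strand), which encodes a plasma protein related to the heavy chains of inter-alpha-trypsin inhibitor, was at 313, 379, 299 and 246 CPM in Veh NPD livers, 378, 300 and 332 in Veh HPD, 275, 320, 401 and 441 in Cort NPD and 235, 237, 255 and 265 in Cort HPD. Cort HPD livers lay below all Cort NPD and Veh HPD livers, yet no comparison passed. The HPD against NPD difference in cort livers was -0.54 (SE 0.16, edgeR adjusted p = 0.0537). It passed with DESeq2 (-0.53, adjusted p = 0.0263), without TMM factors (-0.71, edgeR adjusted p = 0.0266, in a fit where the median of all genes shifted by -0.17), without Veh NPD replicate 4 (-0.54, edgeR adjusted p = 0.0462) and without Cort NPD replicate 1 (-0.64, edgeR adjusted p = 0.0307). With cort on the HPD it was -0.44 (SE 0.17, edgeR adjusted p = 0.115), and -0.68 without TMM factors (edgeR adjusted p = 0.031), where the median of all genes shifted by -0.24. In eWAT Itih4 had 0 to 40 reads per library.

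Several of the 10 genes were transcribed in fat at levels near those of liver. On the CPM scale with all counted reads as the total and without TMM factors, Hp in eWAT was at 76.4% of its liver level in Veh NPD, 123% in Veh HPD, 188% in Cort NPD and 160% in Cort HPD, as ratios of group means. Orm1 in eWAT was at 35.8%, 15.6%, 37.6% and 28.2% of its liver level, and Saa3 at 62.9%, 135%, 78.3% and 84.7%. Lcn2 was at 133%, 63.7% and 13.4% in the first 3 groups and at 126% in Cort HPD, which was 11.2% without the library of epididymal transcripts. Orm2, at low counts, was at 31.5%, 4.54%, 29.5% and 6.12%. By contrast, Hpx was at most at 0.017%, Apcs at 0.0124%, Saa1 at 0.218%, Saa2 at 0.25% and Itih4 at 0.584% of liver. Transcripts of hepatocytes were set on the same scale: of the 10 hepatocyte markers, 9 were at 0 to 0.126% of liver in eWAT, and albumin was at 0.0533% to 0.126%. Cyp2e1, which fat also transcribes, was at 99.7% to 398%. Hp, Orm1, Orm2, Saa3 and Lcn2 in eWAT were thus far above the share of these 9 markers. Itih4, at 0.136% to 0.584%, was above the highest of the 9 in every group. Saa1 was above the highest of the 9 in Veh HPD (0.179%, beside 0.126%) and in Cort HPD (0.218%, beside 0.0533%). Saa2 was above it in Veh HPD alone (0.25%), and both genes had at most 13 reads per eWAT library there. In the other groups Saa1 and Saa2 were within the range of the 9, as were Apcs and Hpx in every group.

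Other acute phase genes were followed in a list of 29. For this and the lists below, only up to 3 called genes per direction are named for each cort comparison. A gene named on only the NPD or the HPD may therefore also have been called on the other diet. In liver on the NPD cort raised 9 and lowered 6 of them, beside 12.6% of all genes called, with a median log2 change of 0.04 beside -0.005 over all genes. On the HPD it raised 8 and lowered 4 (8 with library totals), beside 9.89%, with a median of 0.42 beside -0.004. Orm3, a further orosomucoid, rose by 2.74 (SE 0.20, edgeR adjusted p = 5.6e-09) on the NPD and by 3.31 (SE 0.22, edgeR adjusted p = 2.63e-09) on the HPD. The antiprotease gene Serpina3n rose by 1.61 and 1.21, Lbp, which encodes lipopolysaccharide-binding protein, rose by 1.24 on the NPD, and Serpina3m rose by 1.49 on the HPD. Hamp, which encodes the iron hormone hepcidin, was lower by -1.21 (SE 0.23, edgeR adjusted p = 0.00131) and -2.11 (SE 0.25, edgeR adjusted p = 1.29e-05). Steap4, which encodes a metalloreductase, changed by -1.49 and -1.79, the fibrinogen chain gene Fgg by -0.92 on the NPD and the mannose-binding lectin gene Mbl2 by -0.97 on the HPD.

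In eWAT 17 of the 29 were tested, of which cort raised 5 and lowered 1 on the NPD, beside 7.98% of all genes called, and raised 5 and lowered 2 on the HPD, beside 6.09%. The number lowered was 1 to 4 under the alternatives on the NPD and 0 to 2 over the fits that left out a library on the HPD. Serpina3n rose by 1.20 (SE 0.12, edgeR adjusted p = 2.21e-07) and 1.60 (SE 0.13, edgeR adjusted p = 1.94e-09), and Serpina3m by 2.80 and 3.17. Metallothionein 1 (Mt1) rose by 2.34 on the NPD and Orm3 by 1.25 on the HPD. The complement gene Cfb changed by -1.12 and -0.51, and C3 by -0.68 on the HPD. Serpina3n, like Hp, passed the test upward in both tissues and on both diets.

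Negative acute phase genes, whose plasma proteins drop during inflammation, formed a list of 10. In liver 2 rose and 2 fell with cort on the NPD, beside 12.6% of all genes called, and 4 rose and 2 fell on the HPD, beside 9.89%. The number that rose on the HPD was 2 to 5 under the alternatives, and the number that fell on the NPD 1 to 2. The transferrin gene Trf rose by 0.84 (SE 0.18, edgeR adjusted p = 0.00313) and 0.82 (SE 0.20, edgeR adjusted p = 0.0101), the retinol carrier gene Rbp4 by 0.57 on the NPD, and the genes of albumin (Alb) and transthyretin (Ttr) by 1.77 and 0.76 on the HPD. Serpina6, which encodes the corticosteroid-binding globulin of plasma, was at -2.95 (SE 0.32, edgeR adjusted p = 1.61e-05) and -3.18 (SE 0.33, edgeR adjusted p = 1.6e-05). The apolipoprotein gene Apoa1 changed by -0.97 on the NPD and the fetuin gene Fetub by -0.71 on the HPD. In eWAT 8 were tested and 2 fell on each diet, with changes of -1.50 and -1.51 for the growth factor gene Igf1 and of -0.73 and -0.91 for Trf, beside 7.98% and 6.09% of all genes called. The progenitor markers given with Hp were lower with cort in the same libraries, and their part in these values was not tested.

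Of 24 genes for the inducing cytokines, their receptors and their signal transducers, 18 were tested in each tissue, and those called with cort were all lower. In liver 4 fell on the NPD (2 to 4 over left-out libraries) and 5 on the HPD (2 to 5), beside 12.6% and 9.89% of all genes called. The leukemia inhibitory factor receptor gene Lifr was at -1.40 (SE 0.18, edgeR adjusted p = 1.33e-05) and -1.93 (SE 0.19, edgeR adjusted p = 5.44e-07). The NF-kappaB inhibitor gene Nfkbia changed by -0.65 on the NPD and by -0.63 on the HPD. Il1a changed by -1.27 on the NPD, and the receptor genes Il1r1 by -1.67 and Il6st by -0.60 on the HPD. In eWAT 1 fell on each diet, with a change of -0.43 for Il6st on the NPD and of -0.72 for Nfkbia on the HPD, out of 18 tested and beside 7.98% and 6.09% of all genes called. On the NPD this count was 0 to 2 over left-out libraries.

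Of 13 transcription factor genes, Cebpb, which encodes the C/EBP factor of the acute phase, fell in liver on both diets, with changes of -0.93 (SE 0.25, edgeR adjusted p = 0.0208) and -1.44 (SE 0.27, edgeR adjusted p = 0.00212). On the HPD Klf9 (-1.29) and Onecut1 (-2.44) also fell and the bile acid receptor gene Nr1h4 rose by 0.76, so that 1 of 13 was called on the NPD, beside 12.6% of all genes, and 4 on the HPD, beside 9.89%. The NPD count was 0 to 2 over left-out libraries. In eWAT, where 10 were tested, the adipocyte factor gene Cebpa was the only one called, higher by 0.55 (SE 0.14, edgeR adjusted p = 0.0133) and 0.52 (SE 0.14, edgeR adjusted p = 0.0228), beside 7.98% and 6.09% of all genes called. On the HPD the count of higher genes was 0 to 2 over left-out libraries. Of 20 genes for receptors and partners of the 10 proteins, 17 were tested in liver, where 2 rose and 5 fell on the NPD and 1 rose and 6 fell on the HPD, beside 12.6% and 9.89% of all genes called. Over left-out libraries the number that fell was 3 to 6 on both diets. The scavenger receptor gene Cd36 rose by 2.09 and 2.06, and the asialoglycoprotein receptor gene Asgr1 by 0.52 on the NPD. Itih2, a heavy chain gene, changed by -0.93 and -0.86. Lrp1, which encodes the receptor of heme-hemopexin, changed by -0.86 on the HPD, and Cd163, which encodes that of hemoglobin-haptoglobin, by -1.43. On the NPD the Fc receptor gene Fcgr3 changed by -1.07.

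Kupffer cell markers, those of the resident macrophages of liver, were lower in every cort liver than in the veh livers of its diet. Sums of 6 Kupffer cell markers, each detected in liver, were 156 to 231 CPM in Veh NPD, 174 to 180 in Veh HPD, 61.6 to 81.0 in Cort NPD and 92.2 to 162 in Cort HPD, and sums of 10 macrophage markers were 247 to 346, 223 to 270, 121 to 219 and 136 to 267 CPM. Their part in the values of Cd163 and Fcgr3 was not tested. In eWAT, where the macrophage sums overlapped between all groups (982 to 1485 CPM), 1 of 16 receptor genes tested rose on the NPD (heme oxygenase 1, Hmox1, by 0.91) and 2 fell, among them Fcgr3 (-0.59), beside 7.98% of all genes called. The number that fell was 1 to 2 over left-out libraries. Of 12 GR target genes, 11 were tested in liver, where 2 rose and 2 fell on the NPD and 1 rose and 3 fell on the HPD, beside 12.6% and 9.89% of all genes called. In eWAT 10 were tested, of which 2 rose on the NPD and 3 fell on the HPD, beside 7.98% and 6.09%. Over left-out libraries the number that fell on the NPD was 1 to 2 in liver and 0 to 2 in eWAT. Those that fell on the HPD were the circadian gene Per1 (-1.59), the zinc finger gene Zbtb16 (-2.80) and Nfkbia (-0.63) in liver, and the kinase gene Sgk1 (-1.14), Zbtb16 (-1.24) and Nfkbia (-0.72) in eWAT. On the NPD in liver they were Nfkbia (-0.65) and the aminotransferase gene Tat (-1.26). Fkbp5, which encodes a partner of the receptor, rose on the NPD by 2.23 (SE 0.48, edgeR adjusted p = 0.00939) in liver and by 1.74 (SE 0.39, edgeR adjusted p = 0.0156) in eWAT, and the sulfotransferase gene Sult1a1 rose by 1.10 in liver and 1.47 in eWAT. On the HPD Sult1a1 rose by 0.77 in liver (SE 0.22, edgeR adjusted p = 0.0277), where the number that rose was 0 to 2 over left-out libraries.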

How the data were processed

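The table deposited by the authors holds raw, whole-number counts by Ensembl gene for the 32 libraries. Per the submitters' processing notes the build was GRCm38 (mm10) and R 4.0.3 and limma were used. The aligner, counting program, annotation, strand setting and handling of duplicate reads are not given in the sources used here. Of the 47643 gene IDs, 47224 had a symbol in the GENCODE annotation of GRCm38, from which positions were taken, and none of the 10 genes overlapped another gene there.

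The test was that of edgeR 4.0.16 in R 4.3.3, with filterByExpr (minimum count 10, minimum total 15), TMM factors, robust dispersions and the quasi-likelihood test, with 1 mean per group, 4 groups per tissue and no covariate. All eWAT libraries and 15 livers were fitted by tissue, and the 31 together for the difference between tissues. P-values were adjusted by Benjamini-Hochberg over all genes tested, with a threshold of 0.05. Alternatives were RLE factors, library totals without TMM factors, DESeq2 1.42.0, limma 3.58.1 (voom), no filter, a fit of only the groups compared, replicate number as a block, all livers, Orm and Saa copies summed, and each library left out. Counts of list genes called were recomputed under the same alternatives, and tissue shares without 1 eWAT library, both added after seeing the data. The steps were tested on simulated data.

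CPM take the counts in tested genes as the total, scaled by TMM factors. For the left-out liver, the filter and the factors came from all livers together. A gene with 3 or fewer reads in a library was taken as at the counting floor. Depth limited Orm2 and Itih4 in eWAT and the 4 genes not tested there. For the other genes the spread between libraries set the precision, and a p-value measures only the spread between these samples, for which the labels name no animals. Named genes were the 10 genes, up to 3 called genes per direction, list and cort comparison by smallest p, and the 3 genes most like each of the 10 by Pearson r. The 10 genes and the lists were chosen with earlier results of these data known, and the lists were written by hand. 1 of their 219 entries matched no gene ID. The values of 1 list gene are not reported here. Promoters came from the RefSeq table of GRCm38.p6.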

Additional observations from a re-analysis of the deposited data

Results flagged for a closer look

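Of 54 groups of 4 libraries compared, 7 had a library whose gap to the nearest other exceeded the 95% critical ratio of Dixon, where chance alone gives about 1 in 20 for independent groups of normally distributed values. The ratio was taken here on unlogged CPM of genes that share libraries, so the number of flags cannot be held against that rate. In liver Cort HPD, replicate 1 was the highest for Saa1 (600.3 CPM, others 75.4 to 94.7), Saa2 (231.1 CPM, others 30.6 to 51.8) and Saa3 (26.2 CPM, others 4.38 to 6.43). In eWAT Cort HPD, replicate 1 was the highest for Saa3 (19.12 CPM, others 2.99 to 4.001) and for Itih4 (2.34 CPM, others 0.948 to 1.03). In eWAT Veh NPD, replicate 1 was the highest for Saa3 (17.54 CPM, others 6.03 to 7.33). The labels do not say whether the liver and eWAT libraries of equal number come from the same mouse. In eWAT Cort HPD, replicate 4 was the highest for Lcn2 (898.0 CPM, others 16.2 to 28.3), and it is the library with 10340 CPM of epididymis and testis markers.

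The cort response of Hp differed between tissues on the NPD, at -1.317 on the log2 scale for liver minus eWAT (SE 0.25, edgeR adjusted p = 0.00133), and it was higher with cort in 4 of 4 libraries of each tissue.

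The left-out liver, Veh HPD replicate 4, was above the 7 other veh livers for Lcn2 (108.1 CPM), Orm2 (17.94 CPM) and Hpx (7097 CPM).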

How the results depend on the processing

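For the 17 called values of the 10 genes, the alternatives other than left-out libraries gave 145 values, of which 134 kept their direction and call, 11 lost the call and 0 reversed. DESeq2 gave no adjusted p for Lcn2 in eWAT with cort on the HPD. The number of the 10 genes called with cort on the NPD in eWAT went from 2 to 1 with library totals, to 3 with only the groups compared and to 1 to 3 over left-out libraries. The number for the HPD in veh eWAT went from 1 to 2 with DESeq2 (Hp added, 0.59, adjusted p = 0.0212) and to 1 to 2 over left-out libraries. For the interaction in eWAT it went from 0 to 1 with DESeq2 and to 0 to 1 over left-out libraries, and in liver from 0 to 1 with DESeq2 and with no filter. For the tissue difference on the NPD it went from 1 to 2 with DESeq2 (Lcn2 added, 3.30, adjusted p = 0.0386) and to 1 to 2 over left-out libraries, and on the HPD from 0 to 1 with library totals (Orm1, -0.86, edgeR adjusted p = 0.0429) and to 0 to 1 over left-out libraries. The tissue difference of Lcn2 on the HPD reversed from -0.88 to 2.688 without eWAT Cort HPD replicate 4, and ranged from -1.193 to 2.688 over left-out libraries. The causes of these shifts were not tested. The replicate number as a block left the counts at 2 and 2 of the 10 genes with cort in eWAT (NPD and HPD) and at 3 and 4 in liver. Lcn2 in eWAT on the HPD was not called with the block (4.27, edgeR adjusted p = 0.145), and it changed no other call of the 10 genes. Of 30 pairs of equal number, 5 had a correlation of deviations above 0.1 (range -0.161 to 0.243), so the numbers were not taken as pairs in general. Between the diets in veh livers all 3 pairs were above it (0.118 to 0.18), and with the block 0 of the 10 genes and 27 of all genes were called there, against 0 and 21. Over all genes, the calls moved most for small sets. The HPD in veh mice called 9 genes in eWAT and 21 in liver, against 126 and 113 with DESeq2, and with all livers the liver count was 7. The interaction called 2 and 14, against 14 and 130 with DESeq2. The HPD in cort mice called 74 in eWAT, against 195 with DESeq2, and 729 in liver, against 371 with all livers and 1075 with DESeq2. The cort count in liver on the NPD was 1565, against 998 with all livers and 1889 with DESeq2. On the HPD it was 1226, against 839 with the HPD groups alone and 1547 with library totals. The tissue difference called 635 and 514, against 423 and 339 with limma voom and 941 and 842 with DESeq2. Over left-out libraries the HPD counts ranged from 5 to 64 in veh eWAT, 5 to 40 in veh liver, 26 to 124 in cort eWAT and 356 to 757 in cort liver, the interaction counts from 0 to 6 in eWAT and 2 to 39 in liver, and the cort counts on the HPD from 581 to 1265 in eWAT and 714 to 1222 in liver. Library totals moved the median of all genes by -0.24 for cort on the HPD and by -0.17 for the HPD in cort mice in liver.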

Other observations

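In eWAT Veh HPD replicate 3 held 20.2 CPM of Saa3, against 3.63 to 7.49 CPM in the other Veh HPD libraries. Its deviations from the group means had r = 0.494 with those of Orm1 over 16 eWAT libraries, and Hp and Orm2 had r = -0.446, given as descriptions. In the left-out liver Orm1 was at 534 CPM, below the 755 to 1197 CPM of the other Veh HPD livers. Saa1 (139 CPM) and Saa2 (82.4 CPM) were within the range of those livers. The places of Hp and Apcs depended on the scaling. With TMM factors Apcs (282 CPM) was within that range and Hp (1135 CPM) was slightly below it. With all counted reads as the total and without TMM factors, Hp and Apcs were above the other Veh HPD livers. Hp was then at 1643 CPM, against 1296 to 1425 CPM in those livers, and Apcs at 407.9 CPM, against 155.6 to 301.2 CPM. Orm1, Saa1 and Saa2 kept their places on that scale.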
